A study of Mus musculus with 2 samples.

Results

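Transcripts of 40 genes for cytosolic and mitochondrial heat shock proteins and their partners were examined in mouse liver. The genes were chosen by function, with earlier results of these data known. They covered the HSP70, HSP110 and HSP90 chaperones, the mitochondrial HSP60 and HSP10, and small heat shock proteins. They also covered J proteins outside the endoplasmic reticulum, cochaperones, and heat shock factors. A gene was measured where the array annotation gave at least 1 probe set this symbol alone, which held for 37 of the 40 genes, with 95 probe sets, among 18194 genes in all. Of the 37, 34 had a probe set with a mean signal of at least 28.4, the 60th percentile of all probe sets, and 9732 genes in all passed this filter. The diosgenin group was ICR mice, an outbred stock, fed 500 ppm diosgenin, a plant steroidal sapogenin, in the CRF-1 basal diet for 4 weeks from the age of 9 weeks. The control group was ICR mice given CRF-1 alone. Each group was 1 Affymetrix array hybridised with RNA pooled from the livers of 3 mice aged 13 weeks. There were no replicate arrays, so no test was possible, and each difference below describes 2 pools.

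Heat shock proteins are molecular chaperones that keep other proteins folded. HSP70 binds exposed hydrophobic stretches of a client and releases it under the control of ATP, J proteins deliver clients and start the ATP cycle, and HSP110 and BAG proteins exchange the nucleotide. HSP90 takes over clients such as steroid hormone receptors and kinases with the help of cochaperones, and HSP60 with HSP10 folds imported proteins inside mitochondria. Under heat or protein damage the factor HSF1 binds heat shock elements, inverted repeats of the bases GAA, in the promoters of many of these genes.

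The heat shock genes did not move as a block, and the HSP70 and J protein classes held genes on both sides. The inducible cytosolic HSP70 genes Hspa1a and Hspa1b were about 2-fold higher on the diosgenin array, whereas the constitutive cytosolic HSP70 gene Hspa8 was 1.45-fold lower. The J protein gene Dnajb1 was higher with a log2 ratio of 0.38. The HSP110 gene Hsph1 and the inducible cytosolic HSP90 gene Hsp90aa1 were 1.82-fold and 1.70-fold lower, and most HSP90 cochaperones were between 1.35-fold and 1.47-fold lower. The mitochondrial chaperones Hspd1, Hspe1, Hspa9 and Trap1 differed by at most 1.07-fold between the arrays by their brightest probe sets.

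Of the 34 genes above the filter, 23 were lower on the diosgenin array and 11 higher. Their median log2 ratio was -0.07, where all 9732 genes had a median of -0.01 and 51% were lower. A signal higher by 1.5-fold or more was found in 2 of the 34, or 5.88%, against 2.84% of all genes, and a signal lower by 1.5-fold or more in another 2, against 3.61%. Whether the arrays tell apart the 2 higher genes, the near-identical copies Hspa1a and Hspa1b, was not tested. Counted as 1 gene they give 1 of 33, or 3.03%, close to the share of all genes. At 1.3-fold, a limit taken after the values were seen, 4 genes or 11.8% were higher, against 7.81% of all genes, and 10 genes or 29.4% were lower, against 9.08%. With the copies as 1 gene, 3 of 33 or 9.09% were higher, again near the share of all genes, and 10 or 30.3% lower. At 2-fold only Hspa1b remained, against 0.555% of all genes higher, and 0 of the 34 were lower, against 0.853%. The spread between arrays narrowed with signal, and many of these genes are bright. Among the 2433 brightest genes, with a mean signal of at least 377, were 21 of the 34. Of these, 6 or 28.6% were at least 1.3-fold lower, against 4.03%, and 1 or 4.76% at least 1.3-fold higher, against 3.41%. Of the same 21 genes 17 were lower and 4 higher, while 50.5% of the 2433 were lower. Among the 17, Dnaja3, Hspb8, Dnaja2, Dnajb6, Hspe1 and St13 were nearly level, at log2 ratios from -0.05 to -0.001. By the median of their probe sets Dnaja3, Hspb8 and Hspe1 were higher, at 0.05, 0.06 and 0.07. Hspa9, among the 4 higher genes, was lower by that median, at -0.09. Genes for one pathway vary together, so these counts are not counts of independent events. The genes were also chosen with earlier results of these data known.

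**Figure D1:**
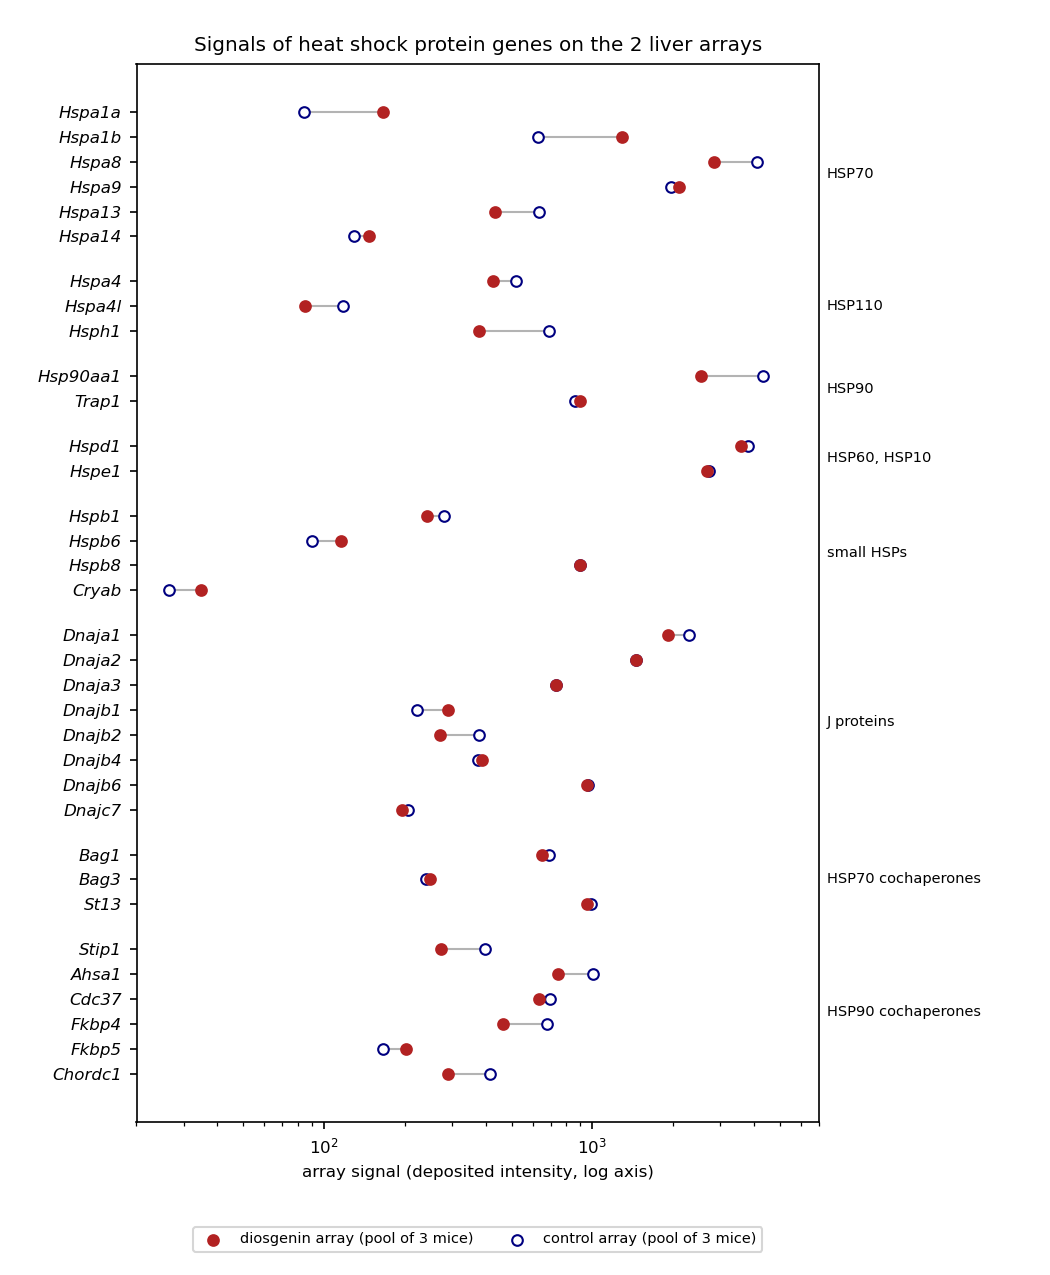
Deposited signal (horizontal log axis) of the brightest probe set of each of the 34 genes above the filter, with filled points for the diosgenin array and open points for the control array. Hspa1a and Hspa1b lie to the right of their control signal, Hsph1 and Hsp90aa1 to the left of it, and the points of Hspd1 and Hspe1 nearly coincide.

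Hspa1a and Hspa1b encode the stress-inducible cytosolic HSP70 and are near-identical neighbouring copies. Hspa1b, by its brightest probe set, had a signal of 1290 on the diosgenin array and 626 on the control array, a 2.06-fold higher signal. Its other probe sets had 901 and 786 on the diosgenin array, against 455 and 396 on the control array, 1.98-fold higher each. Hspa1a had 1 probe set, with 167 on the diosgenin array and 84.3 on the control array, 1.98-fold higher. The 4 probe sets thus gave log2 ratios between 0.98 and 1.04. Between probe sets of the same gene the standard deviation was 0.28 over the 4079 genes with several, dim probe sets included. Probe sets of a gene read the same 2 pools and are not replicates. Since the copies are so alike, a probe set of either gene may read both. The Hspa1a probe set and the Hspa1b one at 786 do not have names that mark several transcripts. Whether any probe set read both genes was not tested, and the 2 genes are counted as 1 difference. In pooled liver RNA, a change in the number of cells of a type and a change in RNA per cell cannot be told apart, here or below.

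The copies also share their promoters. Over the 300 bases from 250 before to 50 after the start site, RefSeq's windows for the mouse assembly GRCm38.p6 were identical at 296 positions. They are shown because these genes had the highest ratios, in lower case with matches to GAANNTTC or TTCNNGAA, a pair of inverted GAA units, in capitals. Hspa1a lies at chr17:34972107-34972406 and Hspa1b at chr17:34959189-34959488, both on the minus strand, and in each the match begins at position -104 from the start.
Hspa1a: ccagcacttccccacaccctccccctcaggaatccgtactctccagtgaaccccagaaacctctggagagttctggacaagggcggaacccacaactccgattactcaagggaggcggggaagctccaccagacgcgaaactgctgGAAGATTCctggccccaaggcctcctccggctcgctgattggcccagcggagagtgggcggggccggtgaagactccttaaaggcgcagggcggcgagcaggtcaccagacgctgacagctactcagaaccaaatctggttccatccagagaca
Hspa1b: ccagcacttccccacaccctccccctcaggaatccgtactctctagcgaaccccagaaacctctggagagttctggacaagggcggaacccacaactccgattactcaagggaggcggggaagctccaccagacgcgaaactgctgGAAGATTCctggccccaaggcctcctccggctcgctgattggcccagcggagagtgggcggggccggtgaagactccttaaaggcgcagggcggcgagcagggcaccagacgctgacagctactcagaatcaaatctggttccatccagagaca

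The other HSP70 genes went different ways. Hspa8, the constitutive cytosolic HSP70 that also uncoats clathrin vesicles, had 2849 on the diosgenin array and 4122 on the control array, 1.45-fold lower. All of its 4 probe sets were lower, with log2 ratios from -0.53 to -0.19, where the least changed was also the dimmest, at 73.7 and 84.1. Without probe sets that can bind several transcripts, of the same gene or of others, only this dim one was left for Hspa8. Such probe sets have names ending in _s_at, _x_at or _a_at. The ending _a_at is meant for several transcripts of the same gene. The Hspa8 probe set with that ending had 1961 on the diosgenin array and 2837 on the control array. Hspa13, a microsome-associated relative, had 433 on the diosgenin array and 635 on the control array, 1.47-fold lower. Its 4 probe sets were all lower, from -0.86 to -0.10. Microsomes are pieces of the endoplasmic reticulum, and Hspa13 is kept in the counts above all the same. Hspa9, the HSP70 of mitochondria, had 2112 on the diosgenin array and 1965 on the control array, 1.07-fold higher. Hspa14, a ribosome-associated member, had 147 and 129, 1.14-fold higher, but a second probe set had a log2 ratio of -0.68. Hspa2, known for its role in sperm formation, and Hspa12a were under the filter and are given no direction.

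All 3 genes of the HSP110 class, whose products act as nucleotide exchange factors for HSP70, were lower. Hsph1 had 378 on the diosgenin array and 688 on the control array, 1.82-fold lower, and its other probe set had 203 and 352, 1.73-fold lower. Both Hsph1 probe sets have names ending in _a_at, for several transcripts of the same gene. Hspa4 had 427 on the diosgenin array and 521 on the control array, 1.22-fold lower by its brightest probe set, while its dimmer ones had log2 ratios of -0.77 and -0.61. By the median of its probe sets Hspa4 was therefore also past 1.5-fold. Hspa4l had 84.6 on the diosgenin array and 118 on the control array, 1.39-fold lower, with 5 probe sets from -0.72 to -0.01. All 10 probe sets of the HSP110 class above the filter were lower on the diosgenin array, 1 of them nearly level at -0.01. They are repeat readings of 3 genes on the same 2 pools. Of all genes, 51% were lower.

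Hsp90aa1, the inducible form of cytosolic HSP90, had 2549 on the diosgenin array and 4321 on the control array by its brightest probe set, 1.70-fold lower. Its other probe sets had 995 and 650 on the diosgenin array, against 1763 and 1210 on the control array, 1.77-fold and 1.86-fold lower. The 3 log2 ratios were -0.76, -0.82 and -0.90, again readings of the same 2 pools. Trap1, the HSP90 of mitochondria, had 902 on the diosgenin array and 859 on the control array, 1.05-fold higher, and its second probe set had 333 on each. Hsp90ab1 was not analysed here.

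**Figure D2:**
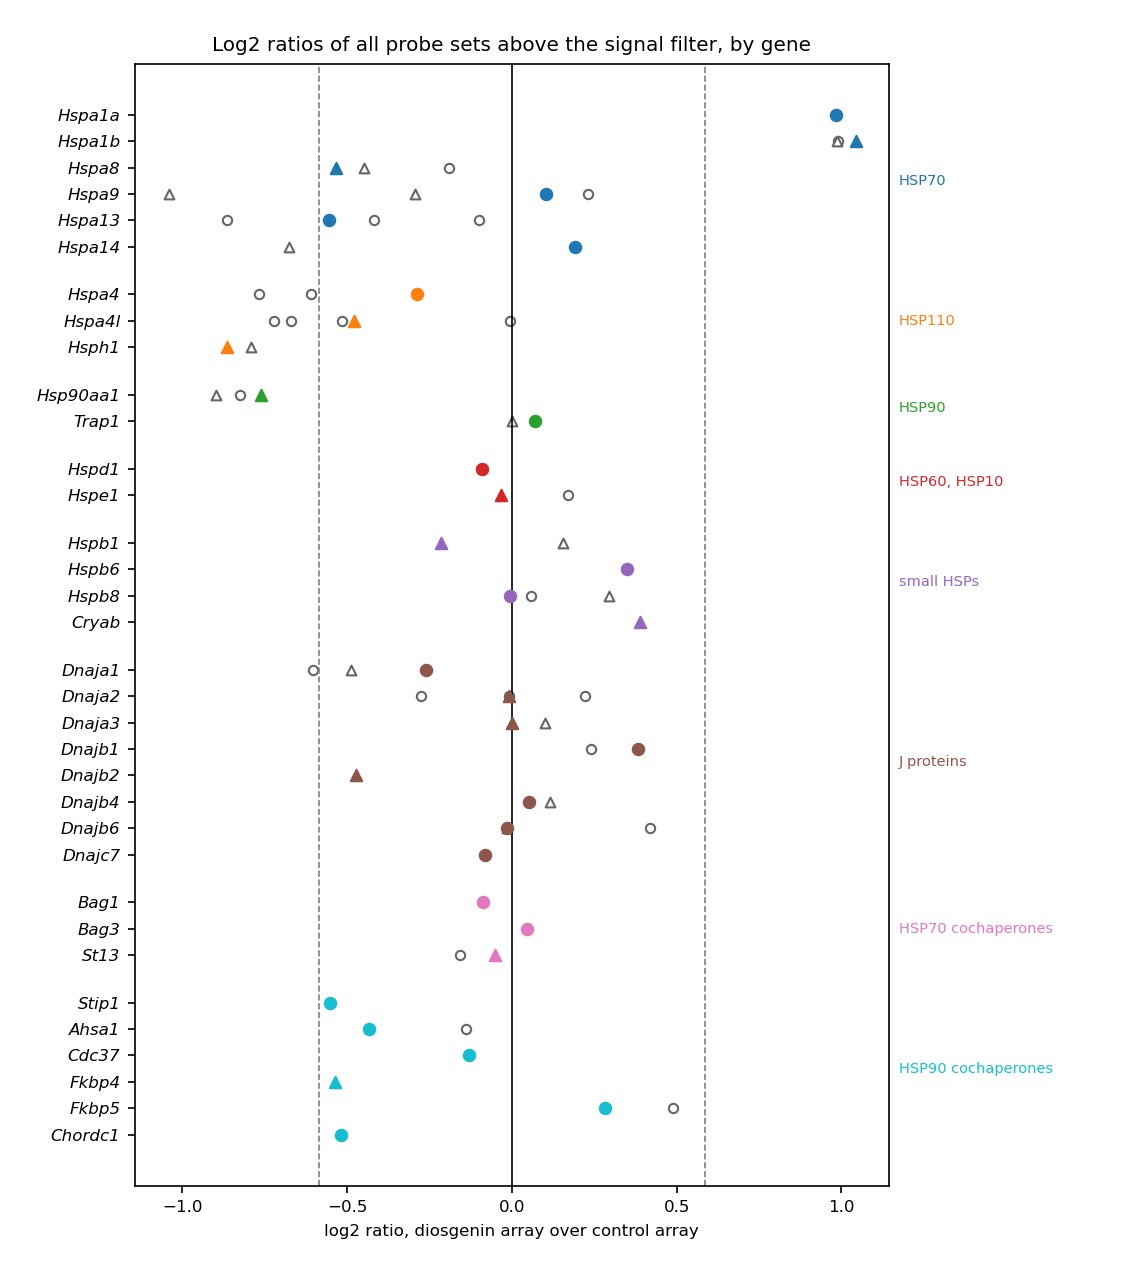
Log2 ratio (diosgenin array over control array) for each of the 73 probe sets above the filter, by gene, with the brightest probe set of a gene filled and coloured by class, the others open, and triangles for probe sets that can bind several transcripts. Dashed lines mark 1.5-fold, and the probe sets of Hspa1b, Hsph1 and Hsp90aa1 each lie together beyond them.

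The cochaperones that work with HSP90 were mostly lower, with a median log2 ratio of -0.48. Of 6 genes above the filter 5 were lower, against 51% of all genes, and 4 by at least 1.3-fold, against 9.08%. Stip1, also called HOP, which bridges HSP70 and HSP90, had 272 on the diosgenin array and 399 on the control array, 1.47-fold lower. Fkbp4, the immunophilin FKBP52 of steroid receptor complexes, had 466 and 676, 1.45-fold lower. Chordc1, a zinc-binding partner of HSP90, had 291 on the diosgenin array and 417 on the control array, 1.43-fold lower. Ahsa1, the activator of the HSP90 ATPase, had 745 and 1006, 1.35-fold lower, with a dim second probe set at -0.14. Cdc37, which brings kinases to HSP90, had 635 on the diosgenin array and 696 on the control array, 1.10-fold lower. Fkbp5, or FKBP51, an inhibitor of glucocorticoid receptor activity and itself a target of that receptor, was the exception, with 203 on the diosgenin array and 167 on the control array, 1.22-fold higher, and a second probe set at a log2 ratio of 0.49. Stip1, Fkbp4, Chordc1 and Cdc37 each had 1 probe set above the filter, so for them there was no second reading. Ptges3 had only probe sets that carry several symbols, and these were left out.

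The J proteins, which select clients for HSP70, were spread around 0, at a median log2 ratio of -0.01. Of these genes 2 were higher and 6 lower, where 51% of all genes were lower. Dnajb1, the HSP40 induced together with HSP70, had 290 on the diosgenin array and 222 on the control array, a log2 ratio of 0.38, and its second probe set had 254 and 215. Dnajb2, a J protein with ubiquitin-interacting motifs, had 271 on the diosgenin array and 377 on the control array, 1.39-fold lower by its 1 probe set. Dnaja1, a farnesylated partner of Hspa8, had 1909 on the diosgenin array and 2285 on the control array, 1.20-fold lower. The remaining Dnaja1 probe sets had larger differences, at log2 ratios of -0.60 and -0.49, so all 3 were lower. The other 5 genes, Dnaja2, Dnaja3 of mitochondria, Dnajb4, Dnajb6 and Dnajc7, had log2 ratios from -0.08 to 0.05 by their brightest probe sets.

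The cochaperones of HSP70 differed little. Bag1 and Bag3, nucleotide exchange factors of which Bag3 directs damaged proteins to autophagy, had log2 ratios of -0.09 and 0.04. Bag3, a usual heat shock target, had 247 on the diosgenin array and 240 on the control array. St13, or HIP, which stabilises the ADP-bound form of HSP70, had 956 and 990, a log2 ratio of -0.05. Of the heat shock factors, Hsf2 was under the filter and is given no direction, and Hsf1 was not analysed here.

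Small heat shock proteins hold unfolding proteins without using ATP. Hspb1, or HSP25 in mice, had 242 on the diosgenin array and 281 on the control array, 1.16-fold lower, but its second probe set was 1.11-fold higher, so no direction was shared. Hspb8, a partner of Bag3, had 897 on the diosgenin array and 901 on the control array. Hspb6 had 115 on the diosgenin array and 90.6 on the control array, 1.27-fold higher. Cryab, or alpha B-crystallin, had 34.6 on the diosgenin array and 26.5 on the control array, 1.31-fold higher, close to the filter, where the spread is widest. Hspb6 and Cryab are best known from muscle. Of 8 muscle markers 2 were above the filter, Acta2 and Tagln, and their summed signal was 116 on the diosgenin array and 209 on the control array. The defining striated muscle genes Ckm, Mb and Tnnt3 were under the filter, and the part of muscle cells in the Hspb6 and Cryab values was not tested.

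Inside mitochondria, Hspd1, the HSP60 chaperonin, had 3582 on the diosgenin array and 3814 on the control array, 1.06-fold lower. Its lid Hspe1, or HSP10, had 2672 and 2732, 1.02-fold lower, and a second Hspe1 probe set was 1.13-fold higher. Hspd1 and Hspe1 lie head to head, so that their promoter windows overlap, and both stayed nearly level.

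**Figure D3:**
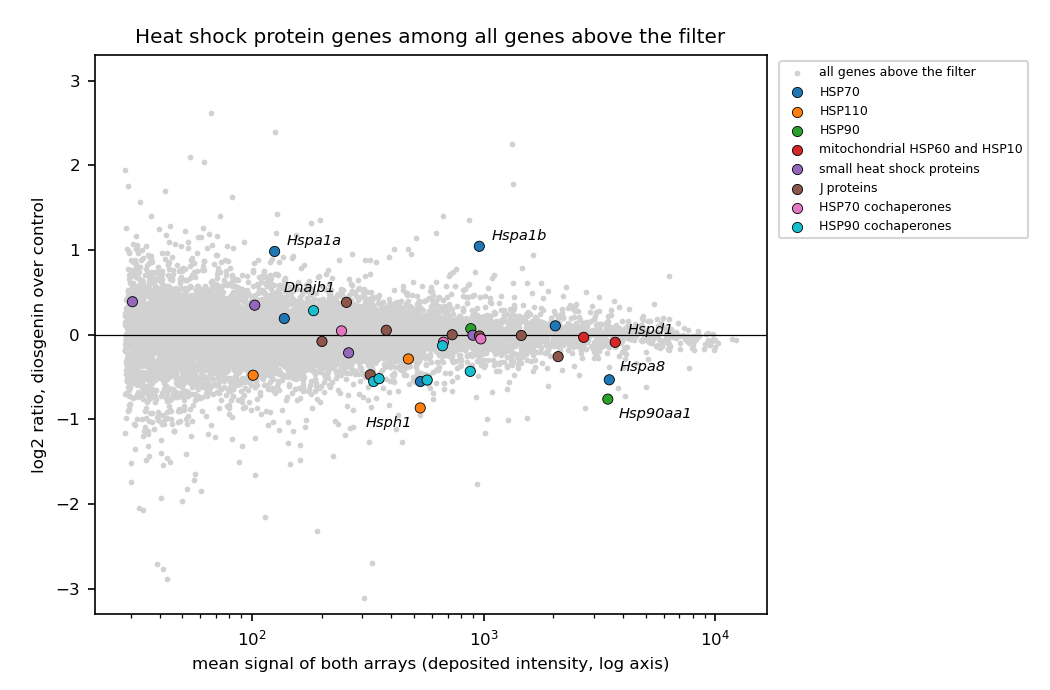
Log2 ratio (vertical axis) against the mean signal of both arrays (horizontal log axis), with grey points for the 9732 genes above the filter and coloured points for the 34 heat shock protein genes by class. Hspa1b, Hsph1, Hsp90aa1 and Hspa8 lie at the edge of the grey points of like signal, and Hspd1 lies in their middle.

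Matches to the letters of heat shock elements were found in a larger share of the heat shock genes than of all genes with a window. Such elements are known in the promoters of many heat shock genes, so this larger share follows from how the genes were chosen. The share says nothing about the difference between the arrays. Of the 40 genes 32 were matched to a RefSeq window by symbol. The pair of units, GAANNTTC or TTCNNGAA, each its own reverse complement, was found in 15 of the 32 genes, or 46.9%, against 17.0% of 27025 genes. The run of 3 units, GAANNTTCNNGAA or on the other strand TTCNNGAANNTTC, which contains both pairs, was found in 5, or 15.6%, against 0.662%. These 5 were Chordc1, Dnajb6, Hspd1, Hspe1 and Hsph1. Hsph1 and Chordc1 had log2 ratios of -0.87 and -0.52, while Dnajb6, Hspd1 and Hspe1 had -0.02, -0.09 and -0.03. Of the 15 genes with a pair, all above the filter, 5 were higher and 10 lower, and of the 13 above the filter without it, 4 were higher and 9 lower. Hspa1a and Hspa1b have nearly the same window, and Hspd1 and Hspe1 share 1 stretch read on opposite strands. With each of these couples counted once, the pair was found in 13 of 30, or 43.3%, and the run of 3 units in 4, or 13.3%. Of these 13, 4 were higher and 9 lower, the same counts as without the pair. Above the filter, Hsp90aa1, Hspa8, Hspa13, St13, Hspa9 and Cryab had no matched window and are in neither count. Their log2 ratios were -0.76, -0.53, -0.55, -0.05, 0.10 and 0.39. Only exact letters were searched, so units with a changed base were not counted. A match in these letters is not evidence of binding, and the genes with a pair did not share a direction.

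Windows with 3 units are shown for Hsph1 and Chordc1, which were lower, and for Hspe1, which was nearly level. Their sites can be compared with the single exact pair in Hspa1a and Hspa1b. Chordc1 and Hspe1 were picked for this after their values were seen. The windows, from RefSeq for GRCm38.p6, are chr5:149636287-149636586 on the minus strand for Hsph1, chr9:18292017-18292316 on the plus strand for Chordc1 and chr1:55087898-55088197 on the plus strand for Hspe1. Capitals mark matches to the pair, and longer runs of capitals hold overlapping matches.
Hsph1: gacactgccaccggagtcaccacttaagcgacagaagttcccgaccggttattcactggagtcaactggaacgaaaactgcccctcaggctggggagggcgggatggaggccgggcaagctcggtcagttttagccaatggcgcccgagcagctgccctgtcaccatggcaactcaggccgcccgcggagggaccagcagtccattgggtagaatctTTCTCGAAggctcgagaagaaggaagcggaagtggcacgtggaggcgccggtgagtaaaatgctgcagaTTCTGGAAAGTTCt
Chordc1: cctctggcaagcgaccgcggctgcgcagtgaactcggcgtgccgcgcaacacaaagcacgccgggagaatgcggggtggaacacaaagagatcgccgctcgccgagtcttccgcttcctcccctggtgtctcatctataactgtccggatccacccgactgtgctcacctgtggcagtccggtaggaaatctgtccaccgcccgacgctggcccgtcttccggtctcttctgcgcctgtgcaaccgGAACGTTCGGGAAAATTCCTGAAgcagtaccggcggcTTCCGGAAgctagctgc
Hspe1: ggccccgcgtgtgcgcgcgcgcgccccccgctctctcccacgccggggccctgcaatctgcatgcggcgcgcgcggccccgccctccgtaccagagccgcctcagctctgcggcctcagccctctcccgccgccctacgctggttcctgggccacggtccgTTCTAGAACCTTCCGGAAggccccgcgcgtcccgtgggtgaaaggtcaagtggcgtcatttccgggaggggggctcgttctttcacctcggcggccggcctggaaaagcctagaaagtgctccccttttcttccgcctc

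In Hspe1 overlapping runs of 3 units begin at positions -89 and -84, on the stretch that its window shares with Hspd1, where they begin at -144 and -139 on the opposite strand. A second Hspd1 window, for another start site, held no match. In the Hsph1 window shown a single pair begins at -33 and the run of 3 units at 37 after the start. RefSeq's second start site for Hsph1 puts the same pair at -54 and the same run at 16. In Chordc1 the runs begin at -4, 2 and 7 and overlap each other, and a further pair begins at 34.

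Other folding genes of the same compartments were set beside these. The filter left 42 such genes, with a median log2 ratio of -0.07. Where 51% of all genes were lower, 26 of these were lower on the diosgenin array and 16 higher. None reached 1.5-fold, and at 1.3-fold 1 was higher and 1 lower, against 7.81% and 9.08% of all genes. Of the 8 subunits of TRiC, the cytosolic chaperonin that folds actin and tubulin, 7 were lower, with a median of -0.15. Cct6a and Cct3 were lowest among them, at 1278 and 1085 on the diosgenin array, against 1616 and 1353 on the control array. Of the 6 subunits of prefoldin, which hands clients to TRiC, 4 were lower, with a median of -0.11. Among 19 other cytosolic cochaperones with a median of -0.07, the HSP90 partner Ttc4 was 1.38-fold lower, Unc45a 1.27-fold lower and Cacybp 1.26-fold lower. Of 9 other genes of mitochondrial protein quality control 5 were higher, with a median of 0.04. The highest was Grpel2, a nucleotide exchange factor for Hspa9, with 183 on the diosgenin array and 124 on the control array, 1.47-fold higher.

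Chaperones of the endoplasmic reticulum had a median log2 ratio of -0.34. Of 14 genes 13 were lower, against 51% of all genes, and 5 by at least 1.5-fold, against 3.61%. Cirbp, the cold-inducible RNA-binding protein, had 61.4 on the diosgenin array and 42.9 on the control array, 1.43-fold higher. Cirbp stood opposite to Hsp90aa1 and Hsph1 and on the same side as Hspa1a, but it is dim and rests on 1 probe set. Rbm3, the other cold-inducible gene listed, had no probe set with its symbol alone.

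**Figure D4:**
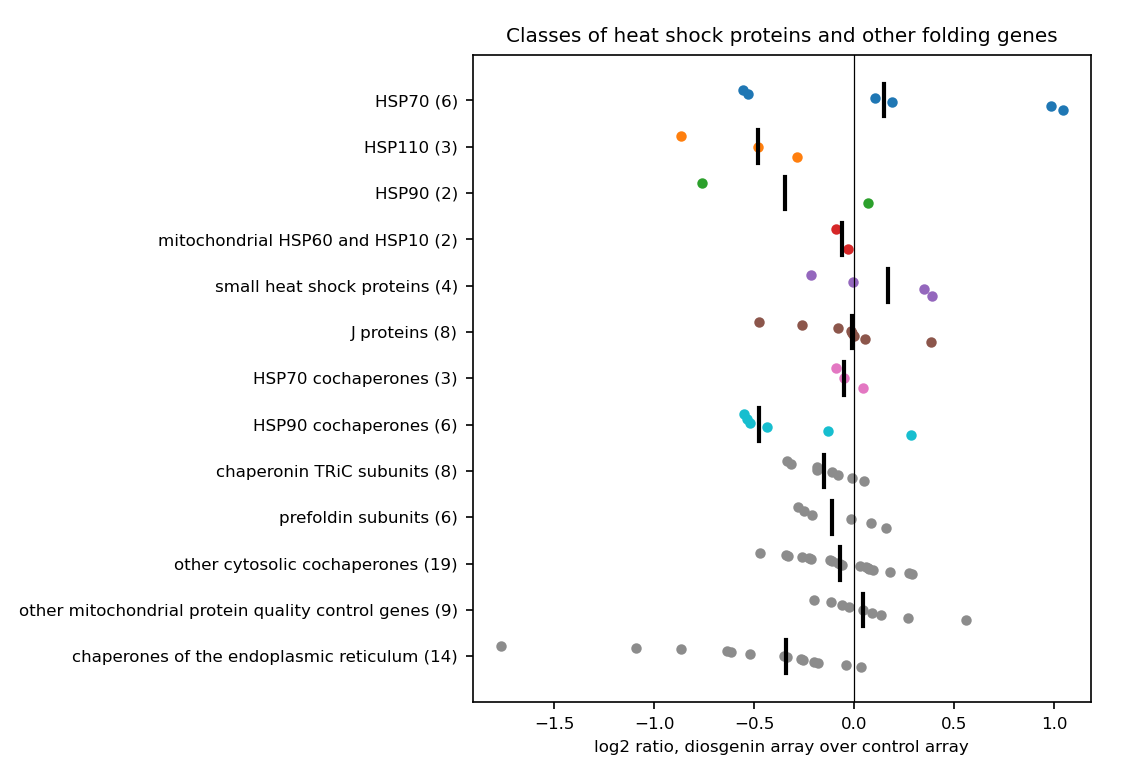
Log2 ratio (diosgenin array over control array) for each gene above the filter, in classes of heat shock proteins (coloured) and in other folding genes (grey), with the number of genes in brackets and the median as a black bar. HSP110 and HSP90 cochaperones have medians of -0.48 each, HSP70 splits to both sides, and mitochondrial HSP60 and HSP10 lie near 0.

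Both arrays had a trimmed mean signal of 96.9, and the median was 17.0 on the diosgenin array and 17.1 on the control array. The ratio of 3' to 5' control signal, a check of RNA integrity, was 2.03 on the diosgenin array and 1.86 on the control array for Actb, and 0.80 and 0.82 for Gapdh. All 10 hepatocyte markers were above the filter, with a summed signal of 78815 on the diosgenin array and 82631 on the control array, so the liver label held. Of 7 endothelial markers 6 were above the filter, summing to 1047 on the diosgenin array and 1428 on the control array. The 7 Kupffer cell markers summed to 1720 and 1522, and 6 of 7 stellate cell markers to 2453 and 2025. None of the 7 lymphocyte and neutrophil markers was above the filter. The part of these shifts in the chaperone values was not tested. Cages held 3 mice, so cage and diet cannot be told apart if each diet was 1 cage.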

How the data were processed

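Liver RNA of 3 mice per diet was pooled, and 1 array per diet was hybridised, per the labels' protocols. The deposited values are linear array intensities, 1 for each of 45101 probe sets, and GCOS is named without a version in the submitters' processing notes. The summary algorithm is not given in the sources used here. Names came from the annotation table of the platform. It gave 1 symbol to 34958 probe sets, which were used, several to 932, and left 9211 unnamed.

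With pandas 2.3.3 and numpy 2.4.6, signals under 10.7, the 40th percentile of both arrays, were set to that floor, and log2(diosgenin signal / control signal) was taken. The probe set with the highest mean signal represented a gene, and genes with a mean under 28.4 were left out. The median of 9732 genes was -0.01. With 1 array per diet there was no test, p-value or interval, and the number of arrays limits the precision. All 40 genes are accounted for, with signals for those at least 1.5-fold apart and the brightest of each class, and up to 3 other folding genes per list. The genes and lists were chosen with earlier results of these data known. All 40 symbols are in RefSeq's gene table. The steps were tested on simulated arrays with known fold changes. Alternatives covered the floor, filter, choice of probe set, scaling and an added constant. Figures were drawn with matplotlib 3.10.9.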

Additional observations from a re-analysis of the deposited data

How the results depend on the processing

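Under 9 alternatives the median log2 ratio stayed between -0.09 and -0.05, and the near-identical copies Hspa1a and Hspa1b were the genes at least 1.5-fold higher in each. Counted as 1 gene, a setting added after the data were seen, these copies leave 1 gene higher and 2 lower, with a median of -0.08. The count of genes at least 1.5-fold lower stayed at 2 or became 3, with Hspa12a when no filter was used and with Hspa4 by the median of probe sets. It was 1, Hsp90aa1, without probe sets ending in _s_at, _x_at or _a_at, since Hsph1 has no other. By fold limits added after the data were seen, 4 were higher and 10 lower at 1.3-fold, and 1 higher and 0 lower at 2-fold. Log2 ratios across the alternatives that gave one ranged from 0.86 to 0.99 for Hspa1a, from 0.99 to 1.05 for Hspa1b, from -0.87 to -0.83 for Hsph1 and from -0.82 to -0.74 for Hsp90aa1. Of 299 values of single genes 296 moved by less than the 0.28 between probe sets, and 0 of those at least 1.5-fold apart changed sign. The others were Hspa14 at -0.24 and Hspa4 at -0.61 by the median of probe sets, and Hspa8 at -0.19 without probe sets ending in _s_at, _x_at or _a_at. Some smaller ratios did change sign. Without those probe sets Hspe1 went from -0.03 to 0.17 and Dnaja2 from -0.01 to 0.22. By the median of probe sets Hspa9 went from 0.10 to -0.09. The counts of genes higher and lower therefore rest in part on the choice of probe set. No paired analysis was possible because each diet had 1 array. How far single mice or other pools would vary is not known.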

Other observations

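Probe sets of the same heat shock gene were of 1 sign in 13 of the 22 genes with several above the filter, or 59.1%, against 51.4% of the 4079 genes of this kind overall. Hspa9 had the widest disagreement. Its bright probe sets had 2112 and 1123 on the diosgenin array, against 1965 and 956 on the control array. Its dim ones had 103 and 67.2 on the diosgenin array, against 126 and 138 on the control array, and the dimmest was 2.06-fold lower. Both dim probe sets have names for several transcripts, ending in _x_at for the dimmest and in _a_at for the other. Hspa14 had 34.3 on the diosgenin array and 54.8 on the control array by its second probe set, 1.60-fold lower, while its brightest was 1.14-fold higher. For Dnajb6, the J protein that suppresses aggregation of polyglutamine proteins, a dim probe set had 91.4 on the diosgenin array and 68.4 on the control array, while the brightest was level. These values were picked out after they were seen.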
